A study of Homo sapiens with 3 samples.

Results

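The 10 genes described here encode the subunits of cohesin (SMC1A, SMC3, RAD21, STAG1 and STAG2) and of condensin (SMC2, SMC4, NCAPD2, NCAPG and NCAPH). They were listed by name as subunits of the complexes, by a rule that uses no measured value, though chosen with earlier results of these data known. They were matched by Ensembl identifier to the 58333 genes of a log2 expression table from Cal62 cells, where all 10 were found. Cal62 cells are a line from a human thyroid tumor, grown in DMEM with fetal bovine serum. The study silenced ADAR, the gene of the RNA-editing enzyme ADAR1, to ask how its loss alters gene expression. Cells received a negative control siRNA (siControl) or 1 of 2 siRNAs against ADAR1 (siADAR1 #1 or siADAR1 #2), delivered with the lipid reagent Lipofectamine RNAiMAX, and poly(A)+ RNA was sequenced from 2 biological replicates of each, 6 libraries in all. All 3 conditions therefore shared the cell line, the medium and the lipid transfection, and the knockdown was transient. The interval between transfection and RNA isolation is not given for these libraries in the sources used here.

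Cohesin and condensin are rings built on a pair of long SMC ATPases closed by a kleisin subunit. In cohesin the SMC1A and SMC3 heads are bridged by RAD21, and a STAG protein, either STAG1 or STAG2, docks on the kleisin; the ring extrudes chromatin loops and holds sister chromatids together from S phase until anaphase. In condensin, SMC2 and SMC4 are joined by the kleisin NCAPH with the HEAT-repeat subunits NCAPD2 and NCAPG, and this condensin I complex compacts chromosomes once the nuclear envelope has broken down. Condensin II shares SMC2 and SMC4 but carries NCAPH2, NCAPD3 and NCAPG2, and works in the nucleus from prophase onwards. Several of these genes, condensin I subunits among them, are transcribed mainly in cells that approach mitosis.

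The libraries held from 30114840 to 50029763 reads assigned to genes, and the members, with at least 792 reads in each library, were far above the limit of 3 reads that a count of 0 allows. ADAR, the targeted gene, fell to 15.8% of siControl with siADAR1 #1 (log2FC -2.71 ± 0.30 SE, adjusted p = 0.00356, limma) and to 20.3% with siADAR1 #2 (log2FC -2.35 ± 0.30 SE, adjusted p = 0.00153). Its normalized counts were 10906 and 11701 in siControl, 1328 and 2246 with siADAR1 #1 and 1663 and 2928 with siADAR1 #2. Of the 5 epithelial markers, all 5 had a mean of 10 or more normalized counts, with a summed level between 67785 and 106204, most of it KRT8 and KRT18. CDH1 was low, from 36.6 to 210 counts, with 210 and 39.8 in siControl. The markers did not move together: with siADAR1 #2 KRT18 stood at 55.3% of siControl and KRT19 at 228.0%. Of the 8 markers of thyroid follicular cells, 5 reached that mean, and NKX2-1, a defining thyroid transcription factor, had 0 reads in every library. The summed thyroid level, most of it PAX8, was 16292 and 18143 in siControl, 12849 and 17806 with siADAR1 #1 and 4692 and 7475 with siADAR1 #2. Only 1 of 5 leukocyte markers reached the mean, CD68, and CD3E was at 0. The summed leukocyte level was 248 and 422 in siControl, 440 and 622 with siADAR1 #1 and 802 and 1566 with siADAR1 #2. Of the fibroblast markers 2 of 6 reached it, COL1A1 and COL1A2, and most of their summed level was COL1A1. That sum ran from 5828 to 7170, from 3371 to 3984 and from 2867 to 3978 in the same order. Endothelial markers (2 of 3) ran from 35.7 to 62.1 over all libraries. The part of these shifts in the results below was not tested.

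Both complexes were abundantly expressed in control cells. Per kilobase of the canonical transcript, SMC4 (8772 ± 875 normalized counts per kb, SD, n = 2) and RAD21 (8010 ± 720) were highest, and their siControl libraries overlapped. NCAPD2 came next at 3549 ± 156, above SMC2 (2614 ± 238) and SMC3 (2333 ± 197), which overlapped each other. STAG2 (1650 ± 66), NCAPG (1540 ± 60), SMC1A (1416 ± 106) and STAG1 (1221 ± 138) followed, and the kleisin NCAPH was lowest at 640 ± 36. These lengths matter: with the union of all annotated exons, a length tried after the data had been seen, SMC4 was still highest and NCAPH lowest, but RAD21 went from rank 2 to rank 4 and STAG2 from rank 6 to rank 9, below STAG1. Changes between conditions do not depend on the length.

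By canonical length, the order of the levels per kb shifted with the knockdown. RAD21 stood above SMC4 in both libraries of either siRNA (7225 ± 195 against 4883 ± 494 with siADAR1 #1, 6216 ± 241 against 4183 ± 470 with siADAR1 #2). STAG2 moved up to rank 3 in both conditions, at 3176 ± 463 and 2219 ± 37. With union exon lengths SMC4 stayed at rank 1 in all 3 conditions (3060 against 1839 for RAD21 with siADAR1 #1, 2621 against 1582 with siADAR1 #2), and STAG2 stood at rank 5 with each siRNA, so the place of RAD21 above SMC4 rests on the length used. By canonical length NCAPH remained last, at 560 ± 85 with siADAR1 #1 and 189 ± 5 with siADAR1 #2, and with siADAR1 #2 NCAPD2 and SMC3 overlapped, as did SMC1A and STAG1.

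With siADAR1 #2, 7 of the 10 subunits were downregulated and 0 upregulated: all 5 of condensin, and SMC1A and STAG1 of cohesin. With siADAR1 #1, 4 changed: SMC4, NCAPD2 and NCAPG of condensin were lower and STAG2 was higher. A gene was called at an adjusted p-value under 0.05 (limma, 20247 genes tested) and a log2FC beyond 0.5 in either direction, and all 10 members passed the filter for low values. By the same rule 27.5% of all genes were called with siADAR1 #2 (16.0% lower and 11.6% higher) and 17.4% with siADAR1 #1 (11.0% lower and 6.39% higher). The median log2FC was -0.92 for the 5 condensin genes and -0.36 for the 5 cohesin genes with siADAR1 #2, against -0.0157 over all genes, and -0.56 and -0.15 with siADAR1 #1, against -0.0288. These are bulk libraries, so fewer cells of a kind, such as dividing cells, and less RNA per cell cannot be told apart. Both comparisons share the siControl libraries. Each library was also left out in turn. Without siControl replicate 1 the siADAR1 #1 calls of the 4 members were lost, as were most calls over all genes. Their log2FC values were then 0.90 for STAG2, -0.74 for SMC4, -0.52 for NCAPD2 and -1.20 for NCAPG, with every direction kept. The count with siADAR1 #2 was 7 whichever library was left out.

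**Figure D1:**
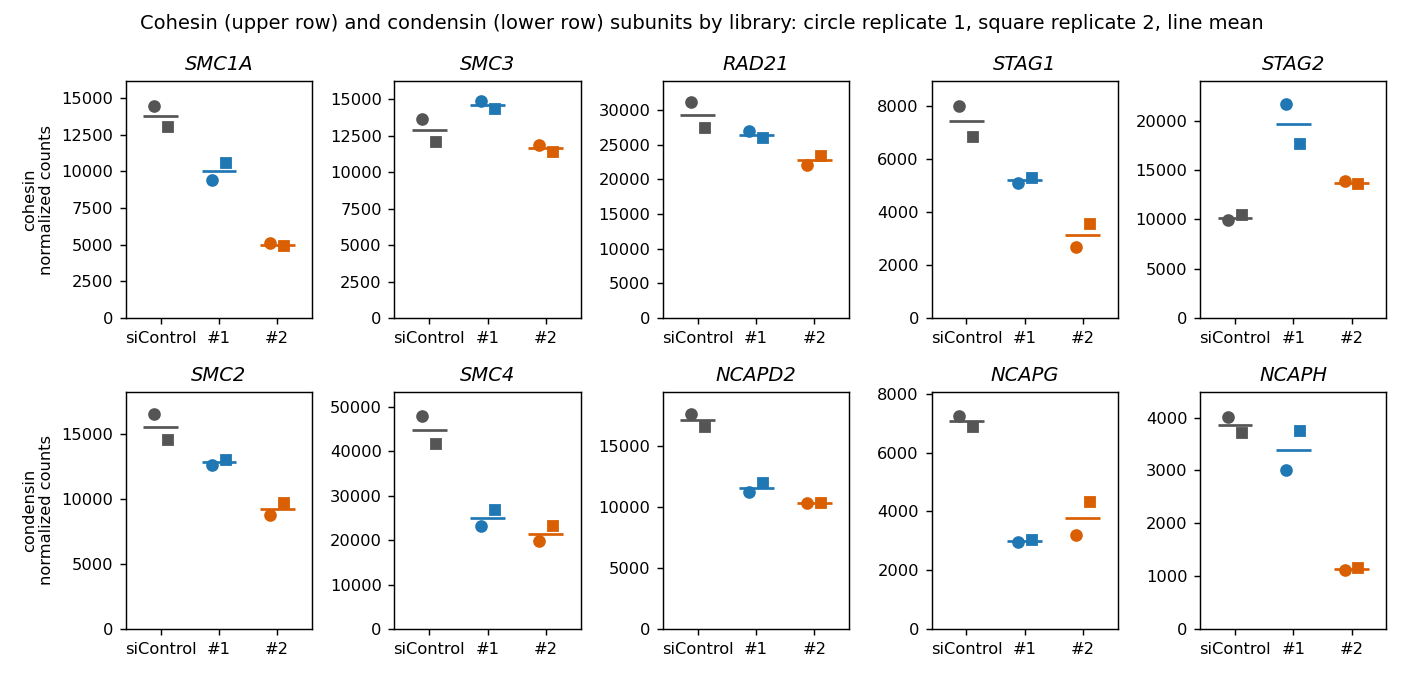
Normalized counts (vertical axes, each from 0) for the 5 cohesin genes (upper row) and the 5 condensin genes (lower row) in siControl, siADAR1 #1 and siADAR1 #2 libraries; circles are replicate 1, squares replicate 2 and lines the mean of 2. SMC4, NCAPD2 and NCAPG sit below both controls with either siRNA, STAG2 sits above both controls, and NCAPH is far lower only in the siADAR1 #2 libraries (1118 and 1160).

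**Figure D2:**
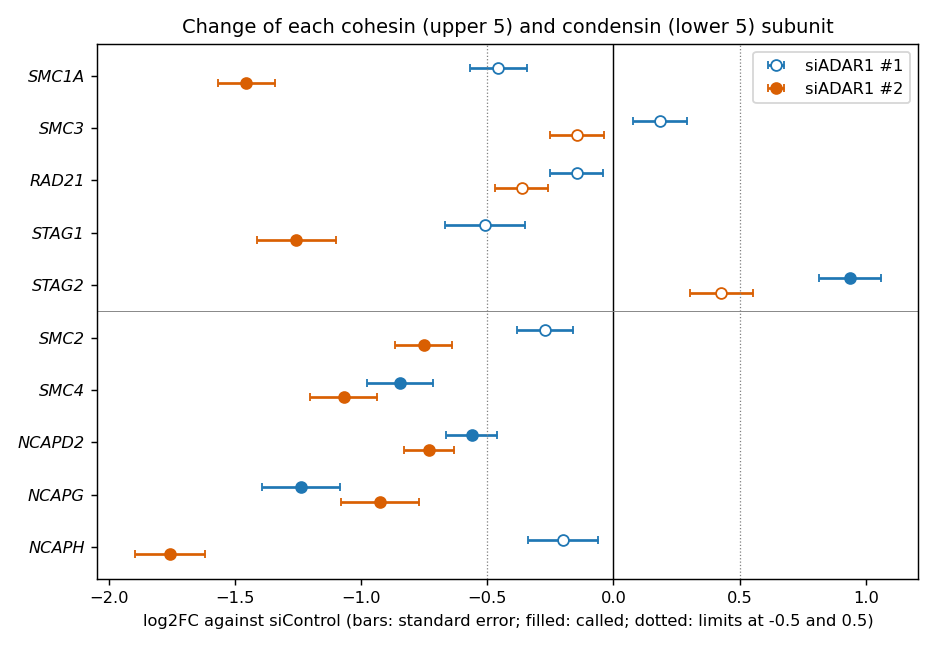
Horizontal axis, log2FC against siControl with its standard error (bars) for each subunit, siADAR1 #1 in blue and siADAR1 #2 in orange; filled points were called and dotted lines mark log2FC values of -0.5 and 0.5. All 5 condensin points of siADAR1 #2 are filled and left of -0.5, and STAG2 is the only gene to the right of 0.5.

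Of the 5 condensin genes, SMC4, NCAPD2 and NCAPG were called lower with both siRNAs, and SMC2 and NCAPH with siADAR1 #2. SMC4, one of its SMC ATPases and the most abundant member, had 48047 and 41713 normalized counts in siControl, 23193 and 26767 with siADAR1 #1 and 19702 and 23101 with siADAR1 #2. All 4 knockdown libraries lay below both controls, and those of siADAR1 #2 reached just under those of siADAR1 #1 (23101 against 23193). SMC4 fell to 55.7% of siControl with siADAR1 #1 (log2FC -0.85 ± 0.13 SE, adjusted p = 0.0072) and to 47.7% with siADAR1 #2 (-1.07 ± 0.13, adjusted p = 0.00129). The other SMC ATPase, SMC2, had 16491 and 14497 counts in siControl, 12614 and 13009 with siADAR1 #1 and 8735 and 9656 with siADAR1 #2. It too was below both controls in all 4 libraries, with no overlap between the siRNAs. SMC2 was downregulated with siADAR1 #2 (59.3% of siControl, log2FC -0.75 ± 0.11, adjusted p = 0.00259), while with siADAR1 #1 it stood at 82.7% and did not pass the test (-0.27 ± 0.11, adjusted p = 0.138).

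NCAPD2 and NCAPG are the HEAT-repeat subunits docked on the condensin kleisin. NCAPD2 had 17654 and 16592 normalized counts in siControl, 11222 and 11965 with siADAR1 #1 and 10305 and 10335 with siADAR1 #2. Its libraries fell into 3 separate ranges, both siRNAs below the control. It was downregulated to 67.7% with siADAR1 #1 (log2FC -0.56 ± 0.10, adjusted p = 0.0105) and to 60.3% with siADAR1 #2 (-0.73 ± 0.10, adjusted p = 0.00186); 5 of 17 alternatives ended the call with siADAR1 #1, where the log2FC lies close to the limit. NCAPG had 7258 and 6867 counts in siControl, 2943 and 3039 with siADAR1 #1 and 3197 and 4324 with siADAR1 #2. This was the member with the lowest level relative to siControl after siADAR1 #1, and the only condensin gene with a lower mean there than with siADAR1 #2. NCAPG fell to 42.3% with siADAR1 #1 (log2FC -1.24 ± 0.15, adjusted p = 0.00405) and to 53.2% with siADAR1 #2 (-0.92 ± 0.15, adjusted p = 0.00388).

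NCAPH, the kleisin that closes the condensin I ring, behaved differently with the siRNAs. It had 4012 and 3708 normalized counts in siControl, 3017 and 3742 with siADAR1 #1 and 1118 and 1160 with siADAR1 #2. The siADAR1 #1 libraries overlapped the controls, while those of siADAR1 #2 lay far below every other library. NCAPH fell to 29.5% with siADAR1 #2 (log2FC -1.76 ± 0.14, adjusted p = 0.000413), the lowest level relative to siControl among the 10 members, and stood at 87.6% with siADAR1 #1 (-0.20 ± 0.14, adjusted p = 0.368).

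Because the condensin genes were lower together with siADAR1 #2, their promoters are shown to let the letters be compared; they are RefSeq windows of 300 bases, 250 before to 50 after an annotated transcription start, on GRCh38.p14, written 5′ to 3′ on the strand of the gene. Capitals mark matches, on either strand, to 3 motifs known from cell cycle promoters: CHR (TTTGAA or TTCGAA), bound by the DREAM and MMB complexes, the CCAAT box (CCAAT), bound by NF-Y, and an E2F motif (TTCCCGC or TTGGCGC), whose second form can share letters with a CCAAT box read on the opposite strand. The table held windows for 9 of the 10 members (14 in all), not for RAD21. For SMC2 and SMC4, each with 2 windows, the one with a match is printed.
SMC2, chr9:104094059-104094358, plus strand: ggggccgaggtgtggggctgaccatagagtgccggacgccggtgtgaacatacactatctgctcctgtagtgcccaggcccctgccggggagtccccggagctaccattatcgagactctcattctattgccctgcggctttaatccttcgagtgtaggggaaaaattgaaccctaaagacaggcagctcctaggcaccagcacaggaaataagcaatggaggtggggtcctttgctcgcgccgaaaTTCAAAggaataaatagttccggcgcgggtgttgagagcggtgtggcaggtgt
SMC4, chr3:160399400-160399699, plus strand: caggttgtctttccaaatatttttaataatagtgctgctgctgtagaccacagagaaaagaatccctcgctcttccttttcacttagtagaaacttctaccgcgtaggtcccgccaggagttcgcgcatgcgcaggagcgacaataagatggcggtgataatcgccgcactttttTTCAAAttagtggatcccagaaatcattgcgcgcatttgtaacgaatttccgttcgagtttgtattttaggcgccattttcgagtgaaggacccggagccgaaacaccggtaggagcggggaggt
NCAPD2, chr12:6493852-6494151, plus strand: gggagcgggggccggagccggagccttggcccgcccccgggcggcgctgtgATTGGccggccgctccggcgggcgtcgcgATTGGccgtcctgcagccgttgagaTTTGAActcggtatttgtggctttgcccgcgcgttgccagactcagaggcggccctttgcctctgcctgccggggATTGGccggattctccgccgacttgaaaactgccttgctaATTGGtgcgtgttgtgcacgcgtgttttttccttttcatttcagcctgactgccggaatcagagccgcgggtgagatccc
NCAPG, chr4:17810729-17811028, plus strand: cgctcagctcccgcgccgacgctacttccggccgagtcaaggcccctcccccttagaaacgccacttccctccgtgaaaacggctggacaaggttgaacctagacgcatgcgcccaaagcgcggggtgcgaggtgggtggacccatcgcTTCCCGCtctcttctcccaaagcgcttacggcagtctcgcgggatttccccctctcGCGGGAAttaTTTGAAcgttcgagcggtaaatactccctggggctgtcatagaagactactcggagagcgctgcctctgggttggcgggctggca
NCAPH, chr2:96335516-96335815, plus strand: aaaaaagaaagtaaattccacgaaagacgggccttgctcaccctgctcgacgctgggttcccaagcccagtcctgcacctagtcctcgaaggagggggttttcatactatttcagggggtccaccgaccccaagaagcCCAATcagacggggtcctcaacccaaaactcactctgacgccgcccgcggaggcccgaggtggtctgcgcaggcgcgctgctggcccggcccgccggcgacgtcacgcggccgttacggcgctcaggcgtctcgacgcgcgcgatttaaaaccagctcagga

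The letters of CHR were in a window of 4 of the 5 condensin genes, with the centre of the match at 0 in SMC2, at -72 in SMC4, at -142 in NCAPD2 and at -32 in NCAPG, in bases from the start. In SMC2 and SMC4 it reads TTCAAA because the match is on the opposite strand. The same letters were in 16.4% of the 35116 windows of all genes and in 19.5% of 27305 genes, so they are common. NCAPH, with no CHR letters, had a CCAAT box at -110, and NCAPD2 had 4 of them; the CCAAT box was in 34.6% of all windows and 39.7% of genes. NCAPG alone of the 5 had E2F letters, at -98 and -42, against 9.23% of all windows and 11.0% of genes. Of the 4 cohesin genes with a window, CHR letters were in 1 (SMC3), the CCAAT box in 2 (STAG1 and STAG2) and E2F letters in 3 (STAG1, SMC1A and STAG2). The G2/M genes used below, 11 with a window, had CHR letters in 8, and the 13 S phase genes with a window had them in 1. A match in a window is a description of its letters and shows no binding.

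**Figure D3:**
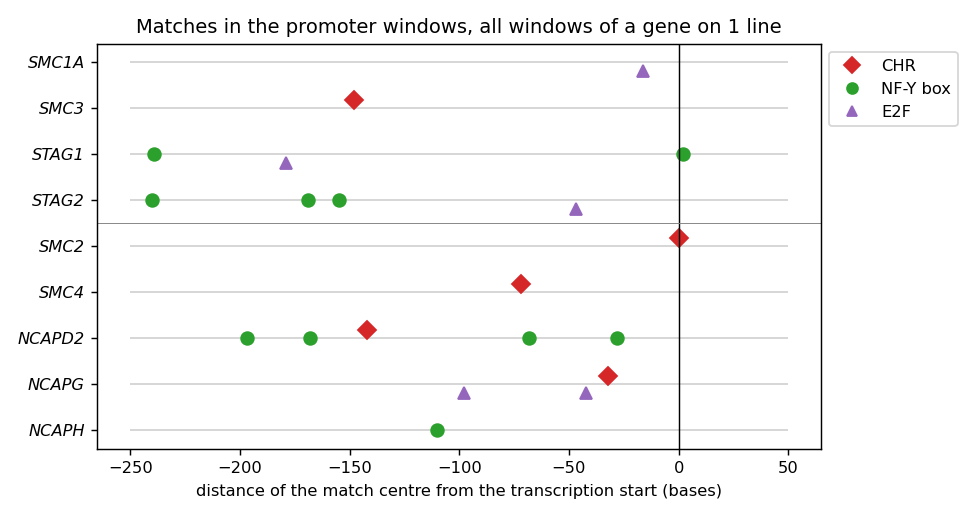
Position of each motif match (horizontal axis, bases from the annotated transcription start, negative before it) in the 9 members with a promoter window, cohesin above the line and condensin below; diamonds are CHR, circles NF-Y boxes and triangles E2F motifs, and several windows of a gene share 1 line. CHR diamonds appear for 4 of 5 condensin genes and for SMC3 of cohesin.

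Cohesin did not move as a unit. SMC1A, an SMC ATPase encoded at chrX:53374149-53422728 (GRCh38, minus strand), had 14474 and 13021 normalized counts in siControl, 9444 and 10588 with siADAR1 #1 and 5124 and 4892 with siADAR1 #2. The 3 conditions did not overlap. SMC1A fell to 36.4% with siADAR1 #2 (log2FC -1.45 ± 0.11, adjusted p = 0.000406). With siADAR1 #1 it stood at 72.9%, with an adjusted p of 0.0300 and a log2FC of -0.46 ± 0.11 inside the limit of 0.5; without siADAR1 #1 replicate 2 it was called (log2FC -0.54, adjusted p = 0.0385, against 0.0223 to 0.156 over the alternatives).

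SMC3 and RAD21 showed the smallest differences of the complex. SMC3, the partner of SMC1A (chr10:110567684-110606048, plus strand), had 13650 and 12115 normalized counts in siControl, 14885 and 14338 with siADAR1 #1 and 11908 and 11372 with siADAR1 #2. The siADAR1 #1 libraries were above both controls and the siADAR1 #2 libraries below both, so the siRNAs stood on opposite sides. Neither passed the test (log2FC 0.18 ± 0.11, adjusted p = 0.273, and -0.14 ± 0.11, adjusted p = 0.351); over the alternatives SMC3 ran from -0.23 to 0.01 with siADAR1 #2. RAD21, the kleisin that separase cuts at anaphase, had 31180 and 27455 counts in siControl, 26950 and 25939 with siADAR1 #1 and 22125 and 23375 with siADAR1 #2. All 4 knockdown libraries were below both controls, yet neither difference was called: log2FC was -0.15 ± 0.11 (adjusted p = 0.382) with siADAR1 #1 and -0.36 ± 0.11 (adjusted p = 0.0353) with siADAR1 #2, 77.6% of siControl.

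STAG1 and STAG2, alternative subunits of the same ring, went in opposite directions. STAG1, which in other cells favours cohesin at CTCF sites and telomeres, had 7994 and 6814 normalized counts in siControl, 5093 and 5276 with siADAR1 #1 and 2681 and 3554 with siADAR1 #2. The 3 conditions did not overlap. It fell to 42.1% with siADAR1 #2 (log2FC -1.26 ± 0.16, adjusted p = 0.00135); with siADAR1 #1 it stood at 70.0% (-0.51 ± 0.16, adjusted p = 0.0604), a value that 6 of 17 alternatives placed past the threshold (adjusted p 0.0424 to 0.274 over all of them). STAG2 had 9904 and 10481 counts in siControl, 21645 and 17599 with siADAR1 #1 and 13873 and 13546 with siADAR1 #2. It was the only member above both controls in all 4 knockdown libraries, with no overlap between the siRNAs. STAG2 rose to 192.5% of siControl with siADAR1 #1 (log2FC 0.94 ± 0.12, adjusted p = 0.00469), and with siADAR1 #2 it stood at 134.5%, with an adjusted p of 0.0339 and a log2FC of 0.43 ± 0.12 inside the limit.

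The promoters of this pair are shown for comparison, since the paralogs moved apart; STAG1 has 1 RefSeq window, and of the 3 of STAG2 the one with most matches is printed (GRCh38.p14, capitals as above).
STAG1, chr3:136752329-136752628, minus strand: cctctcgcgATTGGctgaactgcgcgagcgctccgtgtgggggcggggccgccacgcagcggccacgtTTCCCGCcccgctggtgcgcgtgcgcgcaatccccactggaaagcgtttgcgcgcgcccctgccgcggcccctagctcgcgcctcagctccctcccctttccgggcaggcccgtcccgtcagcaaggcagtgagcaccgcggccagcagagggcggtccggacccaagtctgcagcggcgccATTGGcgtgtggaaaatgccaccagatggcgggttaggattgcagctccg
STAG2, chrX:123961808-123962107, plus strand: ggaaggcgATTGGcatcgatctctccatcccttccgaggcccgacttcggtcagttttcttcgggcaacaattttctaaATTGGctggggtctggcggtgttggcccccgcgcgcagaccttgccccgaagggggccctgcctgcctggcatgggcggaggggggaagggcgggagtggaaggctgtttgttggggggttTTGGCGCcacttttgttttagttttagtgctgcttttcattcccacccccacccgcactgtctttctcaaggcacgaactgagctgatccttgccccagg

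Both printed windows hold the CCAAT box and E2F letters and neither holds CHR letters. The STAG2 window was picked for its matches, so this likeness depends on that choice. Of the other STAG2 windows, chrX:123960310-123960609 holds a CCAAT box and no E2F letters. The window chrX:123961062-123961361 holds no match. STAG1 lies at chr3:136336236-136752403 and STAG2 at chrX:123960212-124422664.

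The mRNA levels of some subunits of 1 complex therefore changed relative to each other. Proteins and assembled complexes were not measured in these libraries. The ratios given here were picked after the levels had been seen and are a description, with no test. STAG2 to STAG1, per kb, was 1.22 and 1.51 in siControl, 4.17 and 3.27 with siADAR1 #1 and 5.08 and 3.74 with siADAR1 #2, so STAG1 went from 42.5% ± 3.7 (SD, n = 2) of the pair to 21.4% ± 2.9 and 18.8% ± 3.3. The libraries of the siRNAs overlapped in this ratio, and with each siRNA both a higher STAG2 and a lower STAG1 mean entered it. SMC1A to SMC3, which meet one to one in the ring, was 0.603 and 0.611 in siControl, 0.361 and 0.420 with siADAR1 #1 and 0.245 and 0.245 with siADAR1 #2. SMC2 to SMC4 was 0.296 and 0.300, then 0.469 and 0.419, then 0.383 and 0.361. NCAPH to NCAPG moved both ways, from 0.421 and 0.411 in siControl up to 0.780 and 0.937 with siADAR1 #1 and down to 0.266 and 0.204 with siADAR1 #2. SMC4 to SMC3, across the complexes, went from 3.80 and 3.72 to 1.68 and 2.02 and to 1.79 and 2.19. Summed per kb, the 5 cohesin genes were at 14630 ± 1094 in siControl, 14934 ± 624 with siADAR1 #1 and 11573 ± 220 with siADAR1 #2, and the 5 condensin genes at 17115 ± 1365, 10659 ± 750 and 8882 ± 763. The levels of the ratios between single genes depend on the length used, and their fold between conditions does not. For the STAG1 share and the sums, both depend on it. With union exon lengths the mean of STAG2 to STAG1 was 0.681, 1.86 and 2.20 in siControl, siADAR1 #1 and siADAR1 #2, with STAG1 at 59.6%, 35.2% and 31.5% of the pair. The mean of SMC1A to SMC3 was then 1.53, 0.983 and 0.616, and that of SMC4 to SMC3 was 6.61 in siControl and 3.25 with siADAR1 #1. By canonical length, the cohesin sum of siADAR1 #1 overlapped the control, while the condensin sum was below the control with both.

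**Figure D4:**
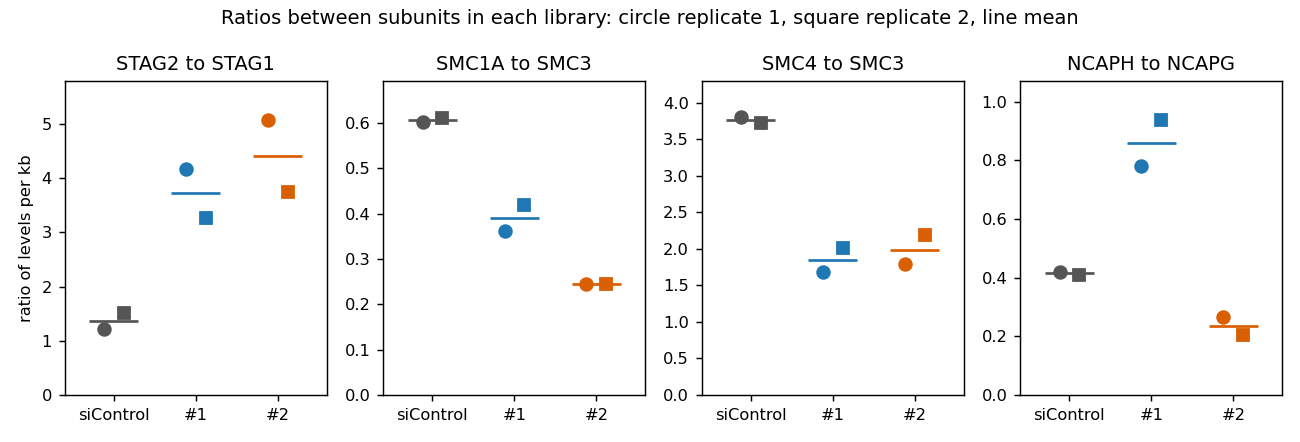
Ratios of levels per kb (vertical axes, each from 0) in each library for STAG2 to STAG1, SMC1A to SMC3, SMC4 to SMC3 and NCAPH to NCAPG; circles are replicate 1, squares replicate 2 and lines the mean. In the first 3 panels both siRNAs lie on the same side of siControl, and in the last they lie on opposite sides of the control values of 0.421 and 0.411.

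The siRNAs were next set against each other in the same fit, which asks which subunits differ between them. With siADAR1 #2 relative to siADAR1 #1, 4 members were lower and 0 higher: NCAPH (log2FC -1.56 ± 0.14, adjusted p = 0.00035), SMC1A (-0.998 ± 0.11, adjusted p = 0.000696), STAG1 (-0.75 ± 0.16, adjusted p = 0.00825) and STAG2 (-0.51 ± 0.12, adjusted p = 0.0144). Of all genes 33.7% were called in this comparison, 16.5% lower and 17.3% higher, so differences between the siRNAs were common. The STAG1 call was lost without siADAR1 #2 replicate 1 (log2FC -0.54, adjusted p = 0.0525). The STAG2 call was lost in 5 of 17 alternatives, among them those without siADAR1 #1 replicate 1 (-0.36), siADAR1 #2 replicate 1 (-0.53) or siADAR1 #2 replicate 2 (-0.49), with adjusted p-values of 0.0093 to 0.0790 over the alternatives. SMC2 (-0.48 ± 0.11, adjusted p = 0.0128) and SMC3 (-0.33 ± 0.11, adjusted p = 0.0437) were inside the fold limit, and SMC2 was called without siADAR1 #1 replicate 1 or siADAR1 #2 replicate 2. RAD21, SMC4 and NCAPD2 had log2FC values between -0.22 and -0.17 and NCAPG one of 0.31 (adjusted p = 0.149); without siADAR1 #2 replicate 1 NCAPG was called, at 0.53.

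When the 4 siADAR1 libraries were taken as 1 group against siControl, 0 of the 10 members and 0% of all genes passed (limma, smallest adjusted p 0.0881, 2869 genes with an unadjusted p under 0.05). ADAR, the targeted gene, did not pass either, so the count of 0 is not particular to the members. This fit merges both siRNAs, between which 33.7% of all genes were called. The pooled log2FC was -0.96 for SMC4 (adjusted p = 0.117), -1.08 for NCAPG (0.135), -0.65 for NCAPD2 (0.146), -0.98 for NCAPH (0.479) and -0.51 for SMC2 (0.338). For cohesin it was -0.96 for SMC1A (0.310), -0.88 for STAG1 (0.276), 0.68 for STAG2 (0.246), -0.25 for RAD21 (0.461) and 0.02 for SMC3 (0.970). When each siRNA was its own group and the mean of both log2FC values was tested, 8 members were called, all but SMC3 and RAD21, and 3601 genes in all. Counted by library, all 4 knockdown libraries were below both controls for 7 members (SMC1A, RAD21, STAG1, SMC2, SMC4, NCAPD2 and NCAPG), against 17.0% of all genes, and above both for STAG2, against 12.0%; SMC3 and NCAPH did neither.

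The 3 subunits particular to condensin II were all called lower with siADAR1 #2, against 16.0% of all genes. With siADAR1 #1, 0 of them were called, against 17.4% of all genes. NCAPG2 (adjusted p = 0.021, limma) and NCAPD3 (adjusted p = 0.037) missed only the log2FC limit there. Condensin II shares SMC2 and SMC4 with condensin I. Its HEAT-repeat subunit NCAPD3 had 14964 and 13293 normalized counts in siControl, 9805 and 11036 with siADAR1 #1 and 7468 and 7990 with siADAR1 #2. NCAPG2 had 10338 and 9404, 6768 and 7184, and 4623 and 5043 counts in the same order. The kleisin NCAPH2 had 2309 and 2489, 1706 and 2147, and 1056 and 1084. For each of the 3 genes all knockdown libraries were below both controls, and those of siADAR1 #2 below those of siADAR1 #1. With siADAR1 #2, NCAPD3 fell to 54.7% (log2FC -0.87 ± 0.12, adjusted p = 0.00173), NCAPG2 to 49.0% (-1.03 ± 0.11, adjusted p = 0.00085) and NCAPH2 to 44.6% (-1.16 ± 0.15, adjusted p = 0.0014). With siADAR1 #1 the log2FC values were -0.44, -0.4997 and -0.32, and 2 of the genes were called without siADAR1 #1 replicate 2. The kleisins of the condensins, NCAPH and NCAPH2, were at a ratio of 0.962 and 0.824 in siControl, 0.979 and 0.965 with siADAR1 #1 and 0.586 and 0.592 with siADAR1 #2.

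The factors that load, release and acetylate cohesin were mostly lower with siADAR1 #2, where 6 of 9 were downregulated and 1 upregulated (median log2FC -0.54). The shares of all genes there were 16.0% lower and 11.6% higher. With siADAR1 #1, 1 of 9 was called, near the 11.0% of all genes called lower. The loader subunit NIPBL had 9227 and 8184 normalized counts in siControl, 7595 and 7374 with siADAR1 #1 and 11754 and 11197 with siADAR1 #2; it differed between the siRNAs (log2FC 0.62 ± 0.11, adjusted p = 0.00375) but was called against siControl with neither. WAPL, which opens the ring and releases cohesin, went the other way, with 8538 and 8343 counts, then 10547 and 10191, then 5510 and 6149. It fell with siADAR1 #2 (log2FC -0.54 ± 0.11, adjusted p = 0.0080), stood at 0.30 with siADAR1 #1 (adjusted p = 0.0937) and differed between them by -0.83 (adjusted p = 0.00107). The cofactors PDS5A (57.7% of siControl, log2FC -0.79) and PDS5B (47.9%, -1.05), which hold WAPL or sororin on the ring, fell with siADAR1 #2. CDCA5 (sororin), which protects cohesion after replication, was the 1 gene lower with both, at 61.3% with siADAR1 #1 (log2FC -0.73, adjusted p = 0.0245, lost without siControl replicate 1, siControl replicate 2 or siADAR1 #1 replicate 1) and 46.3% with siADAR1 #2 (-1.11, adjusted p = 0.00275). The acetyltransferases that act on SMC3 parted with siADAR1 #2, where ESCO2, the S phase enzyme, was at 61.0% (log2FC -0.71, adjusted p = 0.0107) and ESCO1 at 142.9% (0.52, adjusted p = 0.0366). HDAC8, which removes that mark, was at 70.3% (-0.5001, adjusted p = 0.0289), a call that 9 of 17 alternatives ended, as 6 did for ESCO1 and 3 for WAPL. The count of 7 called in this list was 4 without siControl replicate 1 and 3 without siADAR1 #2 replicate 1, and MAU2, the partner of NIPBL, was not called with either siRNA.

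Genes that guard and cut cohesin at mitosis, 4 in all, were all downregulated with siADAR1 #2 (median log2FC -1.03), and 1, ESPL1, with siADAR1 #1. By the same rule 16.0% and 11.0% of all genes were called lower. The ESPL1 call with siADAR1 #2 was lost in 6 of 17 alternatives (adjusted p 0.0127 to 0.176), among them those that left out any 1 library of siControl or siADAR1 #2. Securin, PTTG1, which restrains separase, had 6194 and 5599 normalized counts in siControl, 3606 and 5089 with siADAR1 #1 and 2143 and 2404 with siADAR1 #2 (38.6% of siControl, log2FC -1.37 ± 0.17, adjusted p = 0.0014). The shugoshins, which protect centromeric cohesin, fell to 42.9% (SGO1, log2FC -1.23) and 55.8% (SGO2, -0.84) with siADAR1 #2. ESPL1, separase itself, had 4756 and 3954 counts in siControl, 1631 and 2261 with siADAR1 #1 and 2587 and 2922 with siADAR1 #2. Like NCAPG it had a lower mean with siADAR1 #1 (44.7%, log2FC -1.17, adjusted p = 0.00698) than with siADAR1 #2 (63.2%, -0.66, adjusted p = 0.0293), and the difference between them did not pass (0.52 ± 0.18, adjusted p = 0.0573).

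Subunits known from meiotic cohesin were also read in these cells. STAG3 had 3377 and 3690 normalized counts in siControl, 2120 and 2584 with siADAR1 #1 and 1355 and 1881 with siADAR1 #2, and fell to 45.8% with siADAR1 #2 (log2FC -1.14 ± 0.18, adjusted p = 0.00333). STAG3 has near-identical partial copies in the genome, so its reads are uncertain. SMC1B had 1039 and 838 counts, then 542 and 642, then 392 and 489, and fell with siADAR1 #2 (47.0%, -1.09 ± 0.19, adjusted p = 0.00492); its call with siADAR1 #1 (-0.66, adjusted p = 0.0496) was lost in 11 of 17 alternatives. REC8, between 74.1 and 294 counts, was not called, and RAD21L1, between 3.27 and 9.18 counts, did not pass the filter.

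The SMC5/6 complex, the remaining SMC ring, which acts in DNA repair, was read for comparison. With siADAR1 #2 it had the median closest to 0 of the lists read here (log2FC -0.32), and 2 of 7 genes were downregulated. With siADAR1 #1 it was also 2 of 7 (median -0.45). Of all genes 27.5% (16.0% lower) were called with siADAR1 #2 and 17.4% (11.0% lower) with siADAR1 #1. Counts of 2 of 7 are too small to set apart from these shares. SMC5 had 6957 and 6877 normalized counts in siControl, 3796 and 4147 with siADAR1 #1 and 5909 and 5412 with siADAR1 #2. The siRNAs thus stood in the opposite order to SMC1A, and SMC5 was lower with siADAR1 #1 (57.4%, log2FC -0.80 ± 0.11, adjusted p = 0.00526) and higher with siADAR1 #2 than with siADAR1 #1 (0.51 ± 0.11, adjusted p = 0.00918). The subunit NSMCE1 did the same (44.5% of siControl with siADAR1 #1, log2FC -1.20, adjusted p = 0.0180), as did NSMCE2, a SUMO ligase, between the siRNAs (0.85, adjusted p = 0.00402). SMC6 (67.1%, -0.57, adjusted p = 0.00699) and EID3 (67.1%, -0.57, adjusted p = 0.0353) were the 2 lower with siADAR1 #2, and neither of the calls of siADAR1 #2 was kept without siControl replicate 1 or without siADAR1 #2 replicate 1.

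Of 7 proteins that act beside these rings on chromosomes, 6 were downregulated with siADAR1 #2 (median log2FC -0.70) and 2 with siADAR1 #1 (median -0.25). Among all genes 16.0% and 11.0% were called lower, in the same order. MKI67, which coats mitotic chromosomes, had 65396 and 68779 normalized counts in siControl, 28820 and 35235 with siADAR1 #1 and 13165 and 18449 with siADAR1 #2, and fell to 47.7% (log2FC -1.07 ± 0.17, adjusted p = 0.00797) and 23.6% (-2.11 ± 0.17, adjusted p = 0.000436). KIF4A, the kinesin that brings condensin to chromosome arms, fell to 69.4% (-0.53, adjusted p = 0.0340, lost in 8 of 17 alternatives) and 41.8% (-1.26, adjusted p = 0.000845). TOP2A, the mitotic topoisomerase, fell to 48.1% with siADAR1 #2 (-1.06, adjusted p = 0.000831). CTCF, which stops loop extrusion by cohesin, had 6032 and 5470 counts, then 7483 and 6454, then 4040 and 3920; it was lower with siADAR1 #2 (69.2%, -0.53, adjusted p = 0.0140, lost in 6 of 17 alternatives) and differed between the siRNAs (-0.80, adjusted p = 0.00196). TOP2B showed the same order, at 116.2% and 63.1% of siControl, SMCHD1 was lower with siADAR1 #2 (61.7%), and MCPH1, which holds back condensin II, was called with neither.

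Most of the cell cycle genes read here were below siControl with both siRNAs. Of 16 S phase genes, 14 were downregulated with siADAR1 #1 (median log2FC -0.76) and 16 with siADAR1 #2 (median -1.13). Of 16 G2/M genes the counts were 7 (median -0.33) and 16 (median -1.10). Over all genes 11.0% were called lower with siADAR1 #1 and 16.0% with siADAR1 #2. With siADAR1 #2, CDC6 was at 29.9% of siControl, MCM7 at 42.2%, CCNB1 at 32.9% and AURKA at 40.1%. With siADAR1 #1, CCNB1 was at 77.9% (log2FC -0.36, adjusted p = 0.121) and AURKA at 81.2% (-0.30, adjusted p = 0.146). The lists spread widely with siADAR1 #1, from -2.07 to -0.21 for S phase genes and from -1.39 to 0.10 for G2/M genes, while the 5 condensin genes ran from -1.24 to -0.20. Without siControl replicate 1 the siADAR1 #1 counts were 0 for both lists and 0 for every other list above, and 312 genes in all were called. With siADAR1 #2 the counts without it were 12 and 14. The part of the cell cycle genes in the levels of the subunits was not tested.

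**Figure D5:**
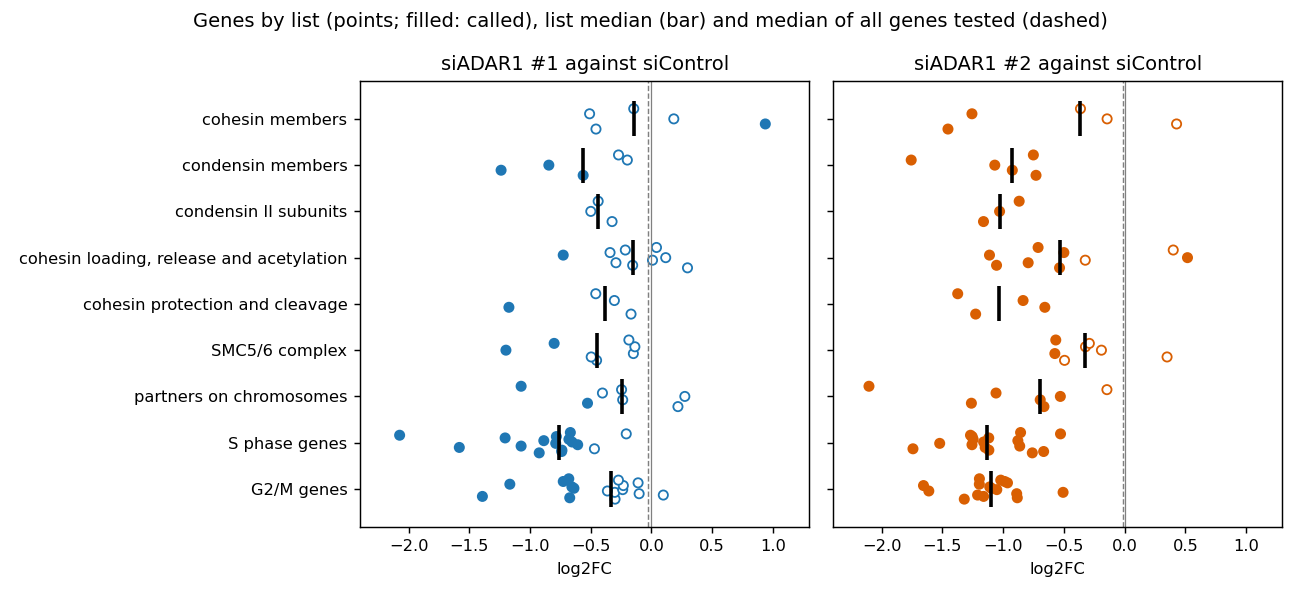
Horizontal axis, log2FC against siControl of every tested gene (points, filled where called) by list, siADAR1 #1 left and siADAR1 #2 right; black bars are list medians and the dashed line is the median of all genes. With siADAR1 #2 the medians of condensin, condensin II, cohesin protection, S phase and G2/M genes lie between -1.13 and -0.92, and those of cohesin and SMC5/6 at -0.36 and -0.32.

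Exons of 3 members overlap a gene on the opposite strand over 27.4% to 35.6% of the transcript. Whether counting used strand is not given in the sources used here, so their reads cannot be fully told apart. RAD21 and SMC4 also had smaller overlaps on the opposite strand, from 2.0% to 4.5% of the transcript, which are not followed here. The large overlaps are 35.6% of the NCAPG transcript with LCORL, 30.3% of SMC4 with TRIM59 and 27.4% of STAG1 with PCCB. LCORL had 1110 to 1151 normalized counts in siControl and was called with neither siRNA (log2FC 0.38 and 0.21), so it differed in sign from NCAPG. TRIM59 had 6671 to 7532 counts and was lower with both (-0.51, adjusted p = 0.0283, and -0.54, adjusted p = 0.0154), closer to 0 than SMC4. PCCB had 2496 to 3015 counts in siControl. With siADAR1 #1 it was lower (-0.71, adjusted p = 0.0172), in the same direction as STAG1 (log2FC -0.51, not called). With siADAR1 #2 PCCB was not lower (0.11, adjusted p = 0.604), while STAG1 was called lower. The part of reads from LCORL, TRIM59 and PCCB in the levels of NCAPG, SMC4 and STAG1 was not tested.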

How the data were processed

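Poly(A)+ RNA from 6 Cal62 libraries (2 per condition) was sequenced as paired-end reads. The authors trimmed reads with Atropos, assigned them to genes by featureCounts within bcbio-nextgen (Salmon ran in parallel) and normalized with DESeq2; the submitters' processing notes name GRCh38, FastQC, featureCounts and Salmon, and versions and the strand setting are not given in the sources used here. For normalization by gene, the paper's methods state a preference for values derived from Salmon through Tximport. Whether the deposited values came from featureCounts or from Salmon is not given in the sources used here. The authors deposited log2 values, a variance-stabilizing transformation of normalized counts. Undoing it gave whole reads for 100% of values (tolerance 0.1), and these divided by the authors' size factors are the normalized counts printed here. The table held 58333 genes, 57830 with a symbol in GENCODE, and 0 columns were left unused. The 2 columns of each labelled sample were taken as the biological replicates of the methods.

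Conditions were tested on the log2 scale by limma 3.58.1, run in R 4.3.3 (lmFit, contrasts.fit, eBayes with trend; two-sided; Benjamini-Hochberg over 20247 genes with a mean of at least 10 normalized counts). The fit with 3 conditions had 3 residual degrees of freedom and the pooled fit 4. Calls needed both adjusted p under 0.05 and an absolute log2FC above 0.5. Fold changes are on the transformed scale, which at these levels is close to log2 of the normalized count. Levels per kb used the Ensembl canonical transcript. Of the steps, undoing the transformation and the limma fit were tested on simulated data. The fit was simulated on log2 of the normalized count plus 1, not on the deposited transformation.

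The named genes are the 10 members, ADAR, the genes of the related lists and up to 3 each of the S phase and G2/M lists, by smallest adjusted p-value with siADAR1 #2; LCORL, TRIM59 and PCCB were named for their overlap. Members and lists were chosen with earlier results of these data known. The alternatives were the filter (none or 50), median centring, quantile normalization, recomputed size factors, log2 of the normalized count plus 1, eBayes without trend or robust, voom on the recovered reads, the replicate block, no fold limit, the 4 libraries compared, the average of the siRNA changes, and each library left out.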

Additional observations from a re-analysis of the deposited data

Results flagged for a closer look

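Of the 10 subunits, 4 are listed because their change against siControl differed between the siRNAs when siADAR1 #2 was tested against siADAR1 #1 (limma, adjusted over all genes tested). The log2FC was -1.56 for NCAPH, -0.998 for SMC1A, -0.75 for STAG1 and -0.51 for STAG2, and in each case both siADAR1 #2 libraries were lower than both siADAR1 #1 libraries. STAG2 was above siControl with both siRNAs and SMC1A and STAG1 below it with both, while the siADAR1 #1 libraries of NCAPH overlapped the controls.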

How the results depend on the processing

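Over the alternatives tried, 0 of the members' differences reversed a call. Precision is limited by having 2 libraries a condition, and leaving one out leaves a condition with 1 library that is assumed to vary like the others. With siADAR1 #1, 4 members were called, 2 (STAG2 and NCAPG) with eBayes without trend, and between 0 and 5 with a library left out, 0 without siControl replicate 1; the counts over all genes were 3518, 1478 without trend and 312 to 3596 with a library left out. With siADAR1 #2, 7 members were called with any library left out, and between 3105 and 5743 genes in all. With the siADAR1 libraries as 1 group, 0 genes were called, 4 with eBayes without trend, 1 with voom, and 3601 with 8 members for the average of the siRNA changes. Voom on the recovered reads called 5, 7 and 4 members and 3702, 5665 and 6912 genes for siADAR1 #1, siADAR1 #2 and siADAR1 #2 against #1. Median centring moved the median log2FC of all genes to 0.113 with siADAR1 #1, where NCAPD2 stood at -0.42 and was not called. The samples share only a replicate number: the difference between replicates 2 and 1 had correlations of 0.111, 0.130 and 0.150 between conditions, and a fit with the replicate block called 4, 7, 4 and 0 members and 4094, 6065, 7256 and 0 genes. The causes of these movements were not tested.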
